A study of Mus musculus with 4 samples.

Results

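Tissue inhibitors of metalloproteinases (TIMPs) and matrix metalloproteinases (MMPs) were followed as 10 genes, taken by symbol from the 32285 genes of the deposited tables. They were 4 inhibitors, Timp1, Timp2, Timp3 and Timp4, and 6 proteases, Mmp2, Mmp3, Mmp7, Mmp9, Mmp12 and Mmp14. All 10 were found. Their transcripts were counted in 4 fresh frozen kidney sections with Visium, an array whose spots capture polyadenylated RNA and mark each molecule with a unique molecular identifier (UMI). Uox_KO mice carried a deletion of exons 2 to 4 of Uox, the gene of urate oxidase, which breaks down uric acid in rodents, and they serve as a model of hyperuricemia. Control mice were wild-type. Both genotypes were male, on a C57BL/6J background, from one supplier, and their ages were not given. Each genotype had 2 sections (replicates 1 and 2), each from its own mouse by title, so p-values between genotypes speak for the variation among 4 sections. P-values between kinds of spots within Uox_KO rest on its 2 sections alone.

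MMPs are secreted or membrane-bound enzymes that use zinc to cut collagens, basement membrane, cytokines and cell surface proteins, and most are made as inactive precursors. TIMPs block the active site of these enzymes, and several TIMPs also inhibit related ADAM and ADAMTS proteases. In the kidney the balance of both families bears on how matrix is laid down and removed after tubular injury, and fibroblasts, macrophages and damaged tubule cells are known sources of different members. The sections were read for 3 features: Havcr1, the kidney injury molecule of damaged proximal tubules, Col1a1, a chain of fibrillar collagen, and a list of 12 macrophage genes.

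The Control sections held 93524222 and 107962997 UMIs over 2528 and 3362 spots, and the Uox_KO sections 53897511 and 57230517 UMIs over 2650 and 2590 spots. The median spot held 37386 and 32038.5 UMIs in Control against 16674 and 19599.5 in Uox_KO. Uox itself had 0 UMIs in all 4 sections, so its count could not check the genotype labels. Kidney markers were present in each section, but their level moved with genotype. The 11 early proximal tubule genes summed to 9608 and 9282 CPM in Control and to 4469 and 4997 in Uox_KO. For 8 thick ascending limb genes the sums were 3374 and 3939 against 1917 and 1682 CPM. For 10 injured tubule genes they were 457 and 554 against 1304 and 1492 CPM. In this paragraph CPM is UMIs relative to the plain total of a section, without TMM. Elsewhere CPM is relative to a TMM-scaled total unless given as plain. Other marker lists moved with genotype. The 12 macrophage genes summed to 114 and 105 CPM in Control and to 1611 and 1284 in Uox_KO, and 8 fibroblast genes summed to 87.0 and 74.1 against 1417 and 1066. The corresponding sums were 110 and 144 against 2036 and 3752 CPM for 8 adipocyte genes, and 2.11 and 1.88 against 5.47 and 6.69 CPM for 8 neutrophil genes. They were 0.642 and 0.815 against 174 and 122 CPM for 9 urothelium genes, 94.6 and 109 against 425 and 278 CPM for 8 smooth muscle and pericyte genes, and 5345 and 5024 against 281 and 792 CPM for 5 red blood cell genes. No gene of these lists was at 0 in all sections. Section pairs shared 1861 to 2539 spot barcodes, which are positions on the array, and a spot can hold several cells. The part of these lists and of the depth difference in the whole-section results was not tested, and more cells of a type cannot be told apart from more RNA per cell.

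The members lie on 8 chromosomes, and Mmp3, Mmp7 and Mmp12 are neighbours within a group of 10 metalloproteinase genes on chromosome 9, between 7272514 and 7699585 (RefSeq, GRCm38.p6). Timp1, Timp3 and Timp4 lie inside the genes Syn1, Syn3 and Syn2. RefSeq windows of 300 bases around a transcript start, most of them upstream, were matched for 8 of the 10 members, in 10 windows. The letters TGANTCA, the binding motif of AP-1 (Jun and Fos) proteins, which read alike on both strands, stood in a window of 3 members, Mmp3, Mmp7 and Mmp12. Of all 32851 windows of this length, 7.81% held it. For these neighbouring genes the 150 bases before each start whose window held the motif are shown, with the motif in capitals, 5′ to 3′. The second window of Mmp7 and the first of Mmp12 did not hold it and are not shown. The motif began 46 bases before the start of Mmp3, 63 bases before that of Mmp7 and 44 bases before the second start of Mmp12. A match is a description of these letters and not a measured site.
Mmp3, chr9:7445672-7445821, plus strand: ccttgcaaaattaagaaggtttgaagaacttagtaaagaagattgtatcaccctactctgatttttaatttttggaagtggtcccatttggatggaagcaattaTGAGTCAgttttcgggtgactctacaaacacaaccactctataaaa
Mmp7, chr9:7691940-7692089, plus strand: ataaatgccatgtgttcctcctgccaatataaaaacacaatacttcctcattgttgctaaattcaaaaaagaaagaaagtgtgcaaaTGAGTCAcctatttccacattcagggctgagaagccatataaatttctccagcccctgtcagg
Mmp12, second start, chr9:7347224-7347373, plus strand: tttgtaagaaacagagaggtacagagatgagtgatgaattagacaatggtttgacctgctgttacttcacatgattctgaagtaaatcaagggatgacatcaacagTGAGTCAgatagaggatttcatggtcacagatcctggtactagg

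The same stretch is shown for Timp1 and Timp3, inhibitors that were higher and lower in Uox_KO, with each CG pair in capitals. Timp1 held 5 such pairs in these 150 bases and Timp3 held 17. Over the full windows Timp1 had 8 CG pairs and Timp3 had 24, more than 80.0% of all windows, whose median was 7. Timp2 had 25. Neither the Timp1 nor the Timp3 window held TGANTCA.
Timp1, chrX:20870016-20870165, plus strand: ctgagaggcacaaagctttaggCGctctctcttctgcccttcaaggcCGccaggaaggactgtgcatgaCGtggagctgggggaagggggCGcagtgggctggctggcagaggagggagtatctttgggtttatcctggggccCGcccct
Timp3, chr10:86300262-86300411, plus strand: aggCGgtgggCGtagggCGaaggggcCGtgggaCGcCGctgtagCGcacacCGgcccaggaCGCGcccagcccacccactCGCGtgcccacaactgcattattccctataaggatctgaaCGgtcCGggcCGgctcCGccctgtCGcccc

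Whole sections of Uox_KO and Control were compared first. Timp1 transcripts were 178-fold higher in Uox_KO, Timp2, Mmp2, Mmp9, Mmp12 and Mmp14 were between 3.81-fold and 11.2-fold higher, and Timp3 was lower. Mmp3, Mmp7 and Timp4 were near 0 in Control and present in Uox_KO. A gene was called when its adjusted p in edgeR's quasi-likelihood test was under 0.05, with Benjamini-Hochberg adjustment over all 16369 genes tested. Of these, 34.6% were called higher and 32.5% lower in Uox_KO, so that 51.5% of the calls were higher, and 73.6% without TMM. Of the 15029 genes that passed the filter on low counts in Control, 30.3% were higher and 35.4% lower. Of the members 7 passed it there, and 6 of those 7 were higher and 1 lower. Timp4, Mmp3 and Mmp7 passed it through Uox_KO alone, so their direction was bound to be up and is not counted with the others.

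Timp1, an inhibitor known to be induced in injured and scarred tissue, was at 0.482 and 0.577 CPM in the Control sections and at 95.01 and 93.23 CPM in the Uox_KO sections. The genotypes did not overlap, and the replicates of each lay close together. It differed by a log2 fold change of 7.46 (SE 0.09), a 178-fold difference (edgeR adjusted p = 2.4e-07). In UMIs this was 41 and 57 against 5711 and 5744. Its host gene Syn1 gave 4 and 7 UMIs in Control and 27 and 36 in Uox_KO. A Timp1 UMI was found in 1.58% and 1.61% of Control spots and in 60.2% and 59.2% of Uox_KO spots. After thinning every spot to 5000 UMIs, the shares were 0.317% and 0.506% against 34.9% and 32.4%, so the difference was present at equal depth. Thinning left out 6 and 4 Control spots and 293 and 152 Uox_KO spots that were shallower.

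Timp2, which inhibits MMPs and also takes part in the activation of the Mmp2 precursor, was at 24.1 and 23.1 CPM in Control and at 109 and 89.5 CPM in Uox_KO. Every Uox_KO value was above both Control values. Its log2 fold change was 2.08 (SE 0.10, edgeR adjusted p = 8.9e-06), or 4.22-fold.

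Timp3, the inhibitor that binds to extracellular matrix, was the member with the most UMIs, 101318 and 106981 in Control and 36718 and 43762 in Uox_KO. Its level was 1192 and 1082 CPM in Control (mean 1137 ± 77.6, SD, n = 2) and 611 and 710 CPM in Uox_KO (661 ± 70.3, SD, n = 2). Both Uox_KO sections were below both Control sections. The level fell by 0.78 on the log2 scale (SE 0.10, edgeR adjusted p = 0.00053), so that Control was 1.72-fold higher. Nearly all spots held Timp3 in both genotypes, 99.9% and 100% in Control and 97.5% and 99.3% in Uox_KO. Its host gene Syn3 gave 689 and 762 UMIs in Control and 111 and 121 in Uox_KO. Whether the counting used strand was not given in the sources used here.

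Timp4, an inhibitor known from heart and fat, gave 8 and 16 UMIs in Control and 163 and 233 in Uox_KO. Its host gene Syn2 was higher in Control, with 508 and 807 against 83 and 161 UMIs. For Timp4 that is a ratio of 29.9 per UMI sequenced (95% counting interval 19.8 to 47.3). Its fitted log2 fold change was 4.62 (SE 0.31), 2.89 without the spots of the fat region described below and 2.17 without fat and stroma-rich spots.

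Among the gelatinases, which cut denatured and basement membrane collagen, Mmp2 was at 2.85 and 3.07 CPM in Control and at 30.1 and 28.7 CPM in Uox_KO. Both Uox_KO sections lay about 10-fold above both Control sections. This was a log2 fold change of 3.31 (SE 0.08, edgeR adjusted p = 1.3e-06). Mmp9, the gelatinase of neutrophils and macrophages, was at 0.635 and 0.587 CPM against 2.93 and 2.78 CPM, with 54 and 58 UMIs against 176 and 171. The groups did not overlap and the log2 fold change was 2.22 (SE 0.16, edgeR adjusted p = 4.2e-05). With the same number of spots taken from each region in every section, it was 0.95, and without fat and stroma-rich spots 1.14.

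Mmp3, a stromelysin that cuts many matrix proteins and activates other MMPs, gave 2 and 3 UMIs in the Control sections and 301 and 329 in the Uox_KO sections. The ratio per UMI sequenced was 228, with a 95% counting interval of 97.4 to 706. Mmp7, the matrilysin of epithelia, gave 2 and 1 UMIs against 586 and 340, a ratio of 560 (191 to 2719). Both genes were thus at the edge of detection in Control and well counted in Uox_KO, and the Mmp7 count of Uox_KO replicate 1 was above that of replicate 2. A single spot of Uox_KO replicate 1 held 64 of its Mmp7 UMIs and a single spot of replicate 2 held 22.

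Mmp12, the elastase of macrophages, was at 1.52 and 1.23 CPM in Control and at 4.52 and 5.96 CPM in Uox_KO (UMIs 129 and 122 against 272 and 367). Uox_KO was above Control in both sections. Its log2 fold change was 1.93 (SE 0.18, edgeR adjusted p = 0.00013), and 1.02 without fat and stroma-rich spots. Mmp14, the membrane-bound MMP that activates the Mmp2 precursor, was at 0.247 and 0.283 CPM against 3.48 and 2.48 CPM, on 21 and 28 against 209 and 153 UMIs. The log2 fold change was 3.48 (SE 0.25, edgeR adjusted p = 4.0e-05), with no overlap between the genotypes.

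**Figure D1:**
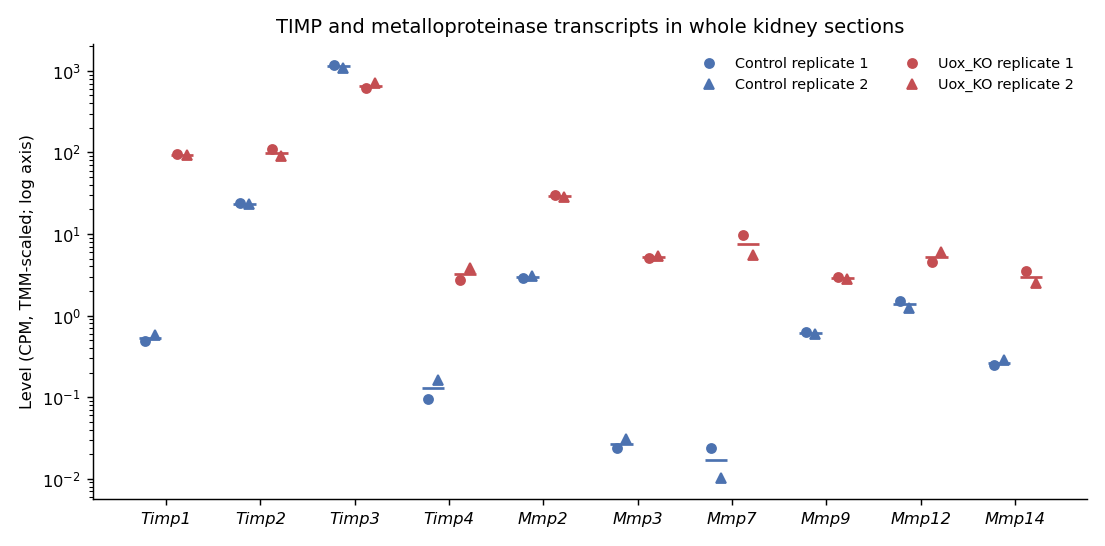
Level of each member in the 4 whole sections, in CPM on a log axis, with 1 point per section and a line at the mean of each genotype. The Uox_KO points lie above the Control points for 9 members and below them for Timp3, which went from 1082 and 1192 CPM to 611 and 710.

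The other genes of the pathway were read from lists. Over all 15029 genes that passed the filter in Control, 30.3% were higher and 35.4% lower, the shares to set beside the counts of each list. Of 17 further MMP genes, 11 were tested and 9 were higher. None was called lower. The median of the 11 was 1.24 on the log2 scale, beside 0.0025 over all genes tested. Of the 6 of them that passed the filter in Control, 5 were higher. Mmp19 was at 0.153 and 0.192 CPM in Control and at 4.91 and 4.54 CPM in Uox_KO. Mmp23 was at 5.71 and 6.74 against 30.3 and 24.4 CPM. Mmp15, a membrane-bound relative of Mmp14, rose by 1.24 on the log2 scale (edgeR adjusted p = 9.4e-05).

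Among 12 ADAM genes, a family of membrane proteases that shed cell surface proteins, 11 were tested, and 9 of them were higher and 1, Adam9 (−0.67), was lower. Their median log2 fold change was 2.17, with Adamdec1 tested through Uox_KO alone. Adam12, Adam8 and Adam23 had log2 fold changes of 2.47, 3.12 and 3.27. Of the 10 that passed in Control, 8 were higher and 1 lower, and the median of those 10 was 1.33. Among 19 ADAMTS genes, secreted proteases of proteoglycans and procollagen, 15 were tested, 9 were higher and 0 lower. Of the 10 that passed in Control 4 (40%) were called higher, near the 30.3% over all genes that passed there. The median of those 10 was 0.37. Adamts2, which trims procollagen, went from 2.39 and 1.81 to 38.5 and 28.6 CPM, while Adamts1 and Adamts10 rose by 1.82 and 1.33 on the log2 scale.

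Of 18 activators, inhibitors and binding partners, all of which passed in Control, 14 were higher and 3 lower (Furin, Plg and Kdr). Lcn2, a binding partner of the Mmp9 protein, went from 0.365 and 0.314 to 104 and 81.8 CPM, and Serpine2 rose by 2.53 on the log2 scale. Of 8 cysteine and serine matrix proteases 6 were higher and 1, Htra1, lower. Fap passed the filter through Uox_KO alone, and of the 7 that passed in Control 5 were higher and 1 lower. The smallest p-values were those of Ctss (10.5 and 8.75 against 116 and 107 CPM), Ctsk and Prss23. Ctss is also one of the macrophage genes. Adam9, Furin, Plg, Kdr and Htra1 are named because they were lower, after their values were seen. Of 15 inducers of MMP transcription 14 were tested and 14 were higher, and 10 of 10 that passed in Control. Jun and Junb, whose proteins bind the AP-1 motif, rose by 1.76 and 2.12 on the log2 scale, Jun from 15.7 and 16.4 CPM in Control to 53.1 and 55.9 CPM in Uox_KO. Tgfb1, a growth factor that drives matrix production, rose by 2.37.

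Where in the kidney the members lay was read from regions. Spots were clustered without the members, Havcr1, Col1a1 and the macrophage genes. Most clusters were grouped by their markers into proximal, distal, glomerular, stroma-rich and fat regions. In the order Control 1, Control 2, Uox_KO 1, Uox_KO 2, they held 1499, 1913, 1256 and 1247 proximal spots, 827, 1104, 293 and 390 distal spots, and 168, 274, 121 and 160 glomerular spots. The stroma-rich region held 30, 53, 740 and 584 spots and the fat region 4, 18, 239 and 209. Clusters 0, 8 and 9 were almost wholly Uox_KO, and clusters 1, 2, 4 and 5 were mostly Control, so different clusters hold most proximal and distal spots of each genotype. Clusters 0 and 1 had only 1 (Havcr1) and 2 listed markers, too few for a name, and were counted as proximal. Their level of early proximal tubule genes was 0.66 and 0.72 of that in cluster 2, beside 0.62 and 0.66 in distal clusters 4 and 5. Cluster 0 held 966 and 1037 Uox_KO spots, and cluster 1 held 807 and 1026 Control spots. Timp1, although left out of the clustering, was among the leading genes of the stroma-rich cluster. With 4 and 18 Control spots, the fat region was not tested.

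In Uox_KO, the UMIs of the members were spread over these regions unequally. The stroma-rich region held 20.9% and 17.1% of all UMIs of the Uox_KO sections, 54.02% and 49.6% of the Timp1 UMIs, 62.5% and 62.9% of the Mmp12 UMIs and 71.2% and 54.7% of the Mmp7 UMIs. For Timp2, Mmp2, Mmp3 and Mmp14 the share there was between 38.6% and 55.1%. Timp3 had 65.5% and 63.0% of its UMIs in proximal spots, which held 59.4% and 57.1% of all UMIs, and 1.83% and 2.65% in fat spots. Timp4 lay apart from the others, with 78.5% and 81.5% of its UMIs in fat spots, which held 7.12% and 9.23% of all UMIs and 90.5% and 89.0% of those of the adipocyte gene Adipoq. The same region held 79.9% and 89.4% of the UMIs of the urothelial gene Upk1b, so its spots are not fat alone. Mmp9 had 26.7% and 33.9% of its UMIs in fat spots and 48.9% and 28.1% in stroma-rich spots.

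**Figure D2:**
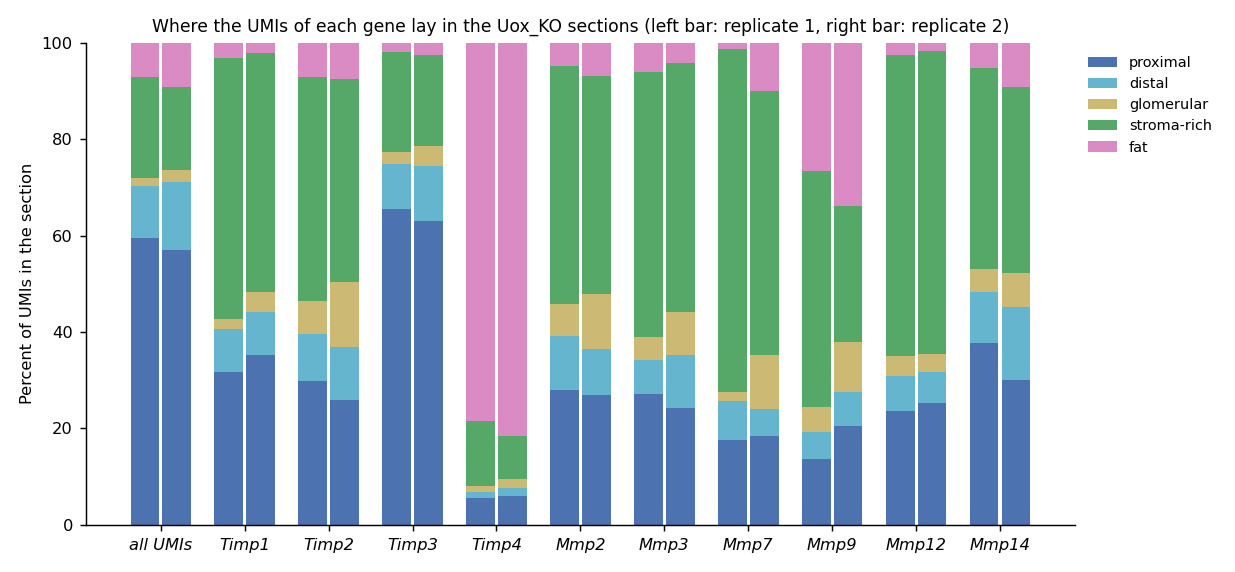
Percent of each member's UMIs that fell in each region of the Uox_KO sections, with all UMIs as the leftmost pair of bars; the left bar of each pair is replicate 1 and the right bar replicate 2. Timp4 stands out by its fat share of 78.5% and 81.5%, and Timp3 by a proximal share of 65.5% and 63.0%.

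Within the regions Timp2 was higher and Timp3 lower in Uox_KO in all 4 tested. The glomerular fall of Timp3 rests on the scaling, with a ratio per UMI sequenced of 1.04. Among the other members that passed the filter in Control, Timp1 was higher in the proximal and stroma-rich regions, and Mmp2 in the proximal, distal and glomerular regions. In the proximal region 30.3% of 15051 genes tested were higher and 28.6% lower, in the distal region 26.2% and 26.2% of 14372, in the glomerular region 27.5% and 27% of 12251, and in the stroma-rich region 23.3% and 22% of 13229. Called members numbered 10 in the proximal region and 9 in each of the others. Fewer passed the filter in Control, 6 in the proximal, 5 in the distal, 3 in the glomerular and 4 in the stroma-rich region, and the rest entered through Uox_KO, so their direction was bound to be up and they are not counted as support. They were Timp1 in the distal and glomerular regions, Mmp2 in the stroma-rich, Mmp9 in the glomerular and stroma-rich and Mmp12 in the glomerular region, and Mmp3, Mmp7, Mmp14 and Timp4 wherever they were tested.

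Timp1 was at 0.294 and 0.420 CPM in Control proximal spots and at 53.4 and 61.0 CPM in Uox_KO proximal spots. In stroma-rich spots it was at 6.22 and 2.71 CPM, on 5 and 3 UMIs, against 233 and 245 CPM. The Uox_KO values were above the Control values in every region. The log2 fold change was 7.30 in the proximal, 6.78 in the distal, 6.51 in the glomerular and 5.82 in the stroma-rich region, and the test of a difference between regions gave an adjusted p of 0.31 (edgeR).

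Timp2 differed by region. Its log2 fold changes were 1.73 proximal, 1.62 distal, 2.12 glomerular and 2.16 stroma-rich, and the region by genotype term was called (edgeR adjusted p = 0.010). That term was called for 38.4% of the 14763 genes tested. In plain CPM, without TMM, glomerular spots held 93.3 and 80.2 in Control and 496 and 512 in Uox_KO, above the proximal spots of the same sections (15.5 and 13.9, 61.3 and 43.9). Stroma-rich spots of Uox_KO held 270 and 238, below its glomerular spots.

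The fall of Timp3 was 0.55 on the log2 scale in the proximal, 0.92 in the distal, 0.41 in the glomerular and 0.97 in the stroma-rich region, and differed between them (edgeR adjusted p = 1.5e-05). In proximal spots its level was 1166 and 1088 CPM in Control against 710 and 833 CPM in Uox_KO. In glomerular spots it was 1331 and 1230 against 855 and 1068 CPM. Per UMI sequenced, without TMM, the glomerular ratio of Uox_KO to Control was 1.04 (95% counting interval 1.001 to 1.089), so the glomerular fall rests on the scaling. The same ratio was 0.735 in the proximal, 0.658 in the distal and 0.714 in the stroma-rich region.

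In stroma-rich spots, where it entered through Uox_KO, Mmp2 was at 1.24 and 3.61 CPM in Control, on 1 and 4 UMIs, and at 67.3 and 68.5 CPM in Uox_KO (ratio per UMI sequenced 36.5, 95% counting interval 15.6 to 113). In plain CPM, Mmp2 in Uox_KO was at 132 and 137 in glomerular spots, above 79.2 and 81.7 in stroma-rich spots. The log2 fold changes of Mmp2 were 3.15 proximal, 2.84 distal, 2.81 glomerular and 4.69 stroma-rich (region by genotype edgeR adjusted p = 0.044). Mmp14 had 3.41, 2.82 and 3.95 in the first 3, and in stroma-rich spots 1 Control UMI against 146, a ratio per UMI sequenced of 15.8 (2.79 to 627), with no difference between regions called (adjusted p = 0.69).

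In the tubular regions, where they passed the filter in Control, Mmp9 and Mmp12 had log2 fold changes of 0.84 to 1.03. Mmp12 was at 1.42 and 1.15 CPM in Control and at 1.89 and 2.81 CPM in Uox_KO proximal spots, and at 1.97 and 1.33 against 10.3 and 8.31 CPM in glomerular spots, on 7 and 7 against 11 and 14 UMIs. Its log2 fold changes were 0.87 proximal, 1.03 distal, 2.48 glomerular, where it entered through Uox_KO, and, on 5 Control UMIs, 2.62 stroma-rich (region by genotype edgeR adjusted p = 0.014). For Mmp9 they were 0.84, 1.03 and, on 10 Control UMIs and through Uox_KO alone, 3.06 in the first 3 (region by genotype edgeR adjusted p = 0.037). In stroma-rich spots 3 Control UMIs stood against 134, a ratio per UMI sequenced of 4.83 (1.62 to 23.7), which was not called (adjusted p = 0.071) but was without Uox_KO 2 (0.039). The distal Mmp9 call was lost without any 1 section (adjusted p 0.12 to 0.22), and the proximal one without Control 1, Control 2 or Uox_KO 2 (0.083 to 0.29). Mmp12 lost its proximal call without Control 2 (log2 fold change 0.72) or Uox_KO 2 (0.56), and its distal call without Control 2 (0.91). The proximal and distal Mmp9 calls were also lost with DESeq2 (adjusted p = 0.18 and 0.22). With clustering at resolution 1.0 they were lost too (edgeR adjusted p = 0.16 and 0.11), while stroma-rich Mmp9 was called (0.011). Mmp12 lost its proximal call at that resolution (edgeR adjusted p = 0.13) and its distal call with DESeq2 (adjusted p = 0.078).

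Mmp3 and Mmp7 were close to 0 in every Control region. In proximal spots Mmp3 gave 0 UMIs in Control and 162 in Uox_KO, at least 106-fold higher with 3 counts set over the Control group. Mmp7 gave 0 against 49 UMIs in glomerular spots (at least 70.5-fold) and 0 against 603 in stroma-rich spots (at least 21.7-fold). In proximal spots Mmp7 had 2 against 166 UMIs, a ratio of 162 (95% counting interval 44.2 to 1351). Timp4 gave 6 against 23 proximal UMIs, and 0 against 43 stroma-rich UMIs, where its call was lost without Control 1 (edgeR adjusted p = 0.15) or Control 2 (0.22).

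Which members lie with Havcr1, with Col1a1 and with macrophage genes was asked within the Uox_KO sections, since Havcr1 gave 26 and 30 UMIs in all of Control against 4811 and 5718 in Uox_KO. Of the 5 members that passed the filter on low counts in spots with none of these features, Timp1 was higher in spots of all 3 kinds. Timp2, Mmp2 and Mmp7 were called higher with Col1a1 and with macrophage genes and not with Havcr1, and Timp3 was not called higher with any. Mmp3, Mmp9, Mmp12 and Mmp14 passed the filter through classes where they were high, so a rise over the spots of none is given as a value and not counted with the others. Between the classes themselves, Mmp12 was higher in macrophage than in Havcr1 or Col1a1 spots.

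For this, the top 10% of spots of each section by Havcr1, by Col1a1 and by the summed macrophage genes were taken. Spots in the top of 1 feature alone made up the Havcr1 class (205 and 207 spots), the Col1a1 class (149 and 107) and the macrophage class (141 and 116). A further 146 and 168 spots were in the top of several, and 2008 and 1992 in none. Of the top Col1a1 and top macrophage spots, 94 and 127 were shared. Depth differed between classes, with a median of 22096 and 27989 UMIs per Havcr1 spot, 7354 and 8413 per Col1a1 spot, 12429 and 10667 per macrophage spot and 18491 and 21188 per spot of none. UMIs were summed per class and section and tested over 12704 genes with the section as a block. The p-values between classes thus rest on 2 Uox_KO mice. Timp4 passed the filter on low counts in no class by itself and was tested on all of them together.

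Against spots of none, 11.2% of genes were higher and 19% lower in Havcr1 spots, 21.8% higher and 22.6% lower in Col1a1 spots, and 28% higher and 26% lower in macrophage spots. Of the calls 37.2%, 49.0% and 51.8% were higher in these comparisons, and 70.8%, 83.4% and 82.5% without TMM. Marker lists moved as well. In Col1a1 spots 12 of 12 macrophage genes were higher and in macrophage spots 8 of 8 fibroblast genes, beside the genes that chose each class. Of 9 glomerulus genes, 6 were higher in Col1a1 spots and 8 in macrophage spots, and 0 were lower in either. In Havcr1 spots 9 of 12 macrophage genes were higher, 8 of 8 adipocyte genes lower, and of the fibroblast genes 3 were higher and 4 lower. The part of this overlap in the members' differences was not tested.

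Timp1 was at 81.8 and 67.0 CPM in spots of none, 207 and 266 in Havcr1 spots, 455 and 290 in Col1a1 spots, 184 and 197 in macrophage spots, and 343 and 409 in spots of several kinds. Every class lay above the spots of none in both sections. Its log2 fold change against none was 1.67 (SE 0.15, edgeR adjusted p = 1.1e-07) with Havcr1, 2.33 (SE 0.16, adjusted p = 1.8e-09) with Col1a1 and 1.35 (SE 0.17, adjusted p = 9.1e-07) with macrophage genes.

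Timp2 was at 115 and 87.6 CPM in spots of none, 88.5 and 78.8 in Havcr1 spots, 355 and 343 in Col1a1 spots and 363 and 338 in macrophage spots. Col1a1 and macrophage spots were alike and lay above the others in both sections. The log2 fold changes against none were 1.79 (SE 0.10, edgeR adjusted p = 2.4e-10) and 1.79 (SE 0.10, adjusted p = 3.0e-11). With Havcr1 it fell by 0.27 (edgeR adjusted p = 0.047), a call lost with DESeq2 (adjusted p = 0.14), with classes set on thinned counts (0.11), at a top 20% (0.17), without fat and urothelium spots (0.25) and without TMM (0.67).

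Timp3 was at 855 and 977 CPM in spots of none, 728 and 872 in Havcr1 spots, 688 and 876 in Col1a1 spots and 562 and 792 in macrophage spots. The ranges of the classes overlapped across the sections. In Havcr1 spots its log2 fold change was −0.20 (edgeR adjusted p = 0.13, but 0.0044 without fat and urothelium spots) and in Col1a1 spots −0.24 (0.060, but 0.012 to 0.045 under 4 alternatives, DESeq2, a top 5%, spots of at least 5000 UMIs and no fat or urothelium spots). In macrophage spots it fell by 0.45 on the log2 scale (SE 0.10, edgeR adjusted p = 0.00065). Without TMM these 3 values were 0.0063, 0.23 and 0.07. The median of all genes in the macrophage comparison was 0.57 without TMM and 0.049 with it, so the direction of Timp3 in these spots depends on the scaling. Timp4 had 149 and 218 UMIs in spots of none, 1 and 3 in Havcr1 spots, 5 and 5 in Col1a1 spots and 2 and 1 in macrophage spots. It was called lower with Havcr1 (edgeR adjusted p = 6.1e-06) and with macrophage genes (adjusted p = 0.00056), beside the adipocyte genes, of which 8 of 8 were lower in both classes. In Havcr1 spots 9 of 9 urothelium, 8 of 8 distal convoluted and connecting, 7 of 7 intercalated and 4 of 4 red blood cell genes were lower too, and in macrophage spots 5 of 9 urothelium genes.

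Mmp2 was at 30.8 and 26.4 CPM in spots of none, 25.3 and 26.3 in Havcr1 spots, 89.8 and 105 in Col1a1 spots and 98.8 and 107 in macrophage spots. Havcr1 spots lay with the spots of none, and the other classes lay about 3-fold above them. Against none the log2 fold change was 1.76 (SE 0.13, edgeR adjusted p = 2.3e-09) with Col1a1 and 1.84 (SE 0.11, adjusted p = 1.0e-10) with macrophage genes. With Havcr1 it was −0.15 (edgeR adjusted p = 0.40).

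Mmp3 was at 4.71 and 3.90 CPM in spots of none, 5.78 and 7.38 in Havcr1 spots, 24.9 and 29.3 in Col1a1 spots and 14.1 and 16.9 in macrophage spots. The order of these classes was the same in both sections, on 26 to 38 UMIs per section in each of the 3 classes. Its log2 fold change was 2.64 (SE 0.26, edgeR adjusted p = 7.6e-08) with Col1a1 and 1.83 (SE 0.27, adjusted p = 8.3e-06) with macrophage genes. With Havcr1 it was 0.61 (edgeR adjusted p = 0.067), which was called without TMM (0.023).

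Mmp7 was at 8.10 and 5.70 CPM in spots of none, 13.1 and 6.78 in Havcr1 spots, 21.0 and 16.6 in Col1a1 spots and 47.4 and 26.5 in macrophage spots. Its section values differed more than those of Mmp2 or Timp2, but macrophage spots were highest of these 4 classes in both sections. Mmp7 had a log2 fold change of 2.39 (SE 0.23, edgeR adjusted p = 3.8e-08) with macrophage genes and 1.40 (SE 0.32, adjusted p = 0.0015) with Col1a1, the latter not called with classes set on thinned counts (adjusted p = 0.053). With Havcr1 it was 0.50 and not called (edgeR adjusted p = 0.14), but it was called at a top 5% (0.98, adjusted p = 0.0051) and at a top 20% (0.80, adjusted p = 0.0081).

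Mmp12 was at 2.79 and 3.53 CPM in spots of none, 6.89 and 8.78 in Havcr1 spots, 9.83 and 7.12 in Col1a1 spots and 37.3 and 27.1 in macrophage spots. Macrophage spots were above the 3 other classes in both sections. Mmp12 had a log2 fold change of 3.41 (SE 0.28, edgeR adjusted p = 3.3e-09) with macrophage genes, 1.46 (SE 0.48, adjusted p = 0.019) with Col1a1 and 1.31 (SE 0.31, adjusted p = 0.0027) with Havcr1. The Col1a1 value was not called without fat and urothelium spots (1.16, edgeR adjusted p = 0.085).

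Mmp9 was at 2.58 and 2.74 CPM in spots of none, 14.4 and 2.37 in Col1a1 spots and 11.9 and 13.9 in macrophage spots. The macrophage value was high in both sections (log2 fold change 2.24, SE 0.35, edgeR adjusted p = 2.0e-05). The Col1a1 value (1.73, edgeR adjusted p = 0.0038) came from replicate 1 with 22 UMIs, whereas replicate 2 had 3 UMIs there and a ratio of −0.21 on the log2 scale. At a top 20% it was 0.53 (edgeR adjusted p = 0.45). Mmp14 was at 3.93 and 2.57 CPM in spots of none, 12.5 and 7.12 in Col1a1 spots and 8.34 and 4.22 in macrophage spots, on 7 to 19 UMIs per class and section. Its log2 fold change was 1.60 (SE 0.37, edgeR adjusted p = 0.0013) with Col1a1 and 1.01 at a top 20% (adjusted p = 0.056). The value with macrophage genes, 0.98 (adjusted p = 0.027), was not called with DESeq2 (0.088), at a top 5% (0.26) or in spots of at least 5000 UMIs (0.050).

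**Figure D3:**
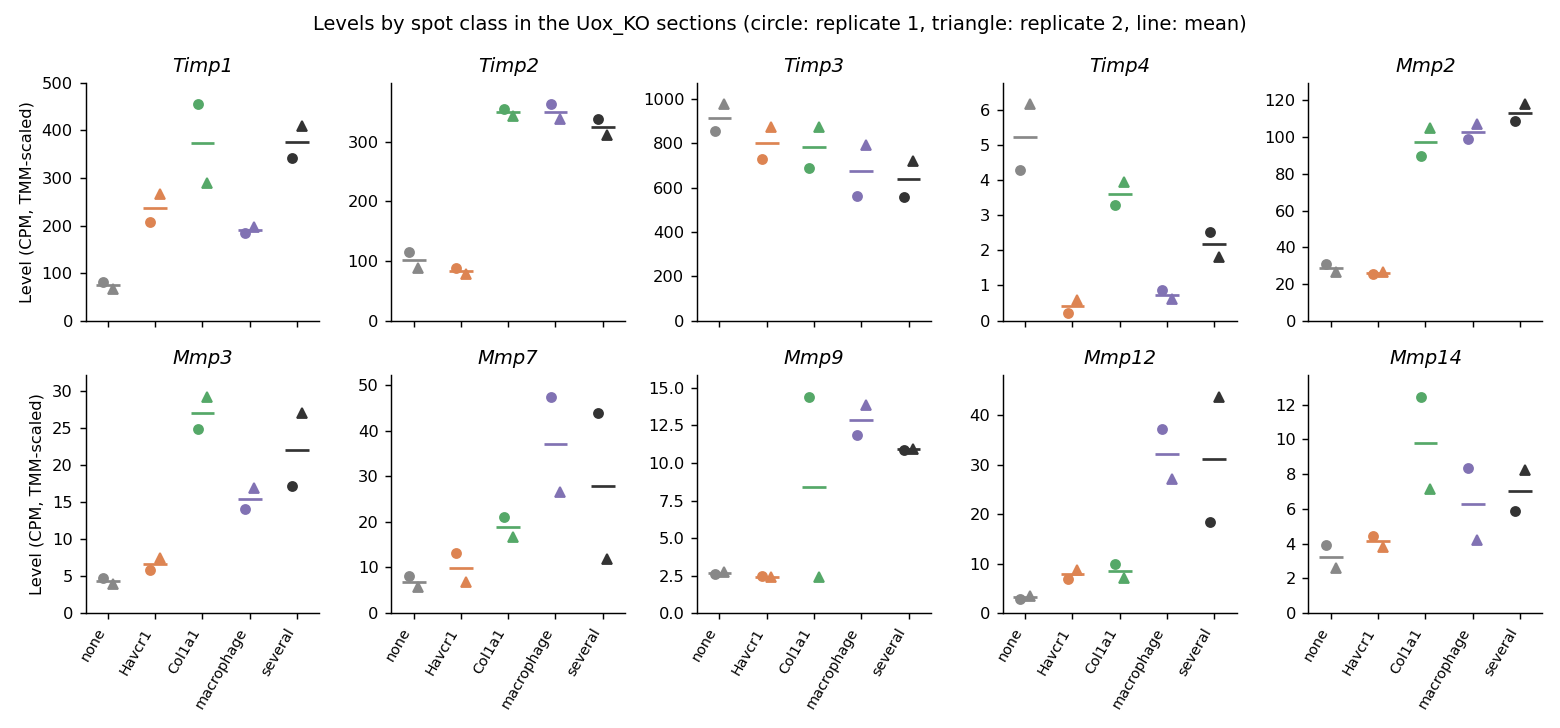
Level of each member in CPM by spot class in the Uox_KO sections, with 1 point per section and a line at the mean. Timp2 and Mmp2 are high in Col1a1 and macrophage spots, Timp2 is at 88.5 and 78.8 CPM in Havcr1 spots against 115 and 87.6 in spots of none, and Mmp12 reaches 37.3 and 27.1 CPM in macrophage spots.

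The 3 classes were also set against each other. Between Col1a1 and Havcr1 spots 19.2% of genes were higher with Col1a1 and 16.9% lower. Timp2 (log2 fold change 2.06), Mmp2 (1.91) and Mmp3 (2.03) were higher in Col1a1 spots, with the same direction in both sections. Mmp14 was called higher there too (1.25, same direction in both sections). It passed the filter on low counts in Col1a1 but not in Havcr1 spots, so its rise is given as a value and not counted with the others. The Mmp14 call was lost at a top 20% (edgeR adjusted p = 0.16) and without fat and urothelium spots (0.27). Timp1 was called higher as well (0.66, edgeR adjusted p = 0.0036), at 1.13 in replicate 1 and 0.13 in replicate 2. Mmp9 was called (1.86) but was −0.01 in replicate 2. Timp4 was called (edgeR adjusted p = 0.0035) on 5 and 5 UMIs against 1 and 3. Mmp7 (0.91, edgeR adjusted p = 0.050) and Mmp12 (0.15, adjusted p = 0.84) were not called.

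Between macrophage and Havcr1 spots 24.1% of genes were higher and 20.8% lower with macrophage genes. Timp2 (2.07), Mmp2 (1.99), Mmp3 (1.22), Mmp7 (1.90) and Mmp12 (2.10) were higher in macrophage spots. Mmp9 was called higher as well (2.38). It passed the filter in macrophage but not in Havcr1 spots, so that rise is given as a value and not counted with the others. Mmp7 was not called there at a top 5% (0.61, edgeR adjusted p = 0.15). Timp3 fell by 0.25 (edgeR adjusted p = 0.044), a value that was 0.06 without TMM and not called without fat and urothelium spots (adjusted p = 0.055). Timp1 (−0.32, edgeR adjusted p = 0.13) and Mmp14 (0.63, adjusted p = 0.22) were not called, Mmp14 except at a top 20% (adjusted p = 0.0048).

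Macrophage and Col1a1 spots differed least, with 1.39% of genes higher and 1.18% lower. Members called between them were Mmp12, higher with macrophage genes (1.95, SE 0.40, edgeR adjusted p = 0.0100, sections 1.92 and 1.93), and Timp1, higher with Col1a1 (−0.98, SE 0.17, edgeR adjusted p = 0.0034, sections −1.31 and −0.56). DESeq2 gave no adjusted p for Mmp12. Timp2 (0.0048, SE 0.10) and Mmp2 (0.08, SE 0.13) had the smallest differences of the members, and Mmp7 (0.99, SE 0.31, edgeR adjusted p = 0.11) was not called, though it was at a top 20% (1.57, adjusted p = 0.0034) and with classes set on thinned counts (1.48, adjusted p = 0.025).

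Correlations over single spots are given as a description. They were taken within a section on log-transformed UMIs per 10000, over 2649 and 2590 spots that share library, depth and neighbourhood. With Havcr1, Timp1 had a Pearson r of 0.26 and 0.32 in Uox_KO 1 and 2, and the other members −0.07 to 0.06. Its r was 0.51 and 0.53 with Col1a1 and 0.46 and 0.52 with the macrophage genes. After thinning to 5000 UMIs the values were 0.20 and 0.24, 0.40 and 0.39, and 0.37 and 0.41. Col1a1 and the macrophage genes themselves had r of 0.69 and 0.71, and Havcr1 and Col1a1 0.11 and 0.15.

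Timp2 had r of 0.55 and 0.62 with Col1a1, 0.60 and 0.65 with the macrophage genes, and −0.05 and −0.01 with Havcr1. Mmp2 followed the same pattern at 0.34 and 0.46, 0.41 and 0.48, and 0.0022 and 0.0071. Timp2 and Mmp2 varied with each other at 0.37 and 0.48, and in Control at 0.29 and 0.24. The scarcer MMPs had weaker values, from 0.12 to 0.29 with Col1a1 and from 0.12 to 0.26 with the macrophage genes, and from −0.01 to 0.06 with Havcr1. In such sparse counts no order among them was read. Timp4 was between −0.11 and 0.01 with the 3 features and at 0.39 and 0.42 with the adipocyte genes, values that were 0.12 and 0.11 without the spots of the fat region. Timp3 was at 0.06 and 0.15 with Col1a1, and at −0.07 and 0.10 without those spots. With the early proximal tubule genes it was at 0.53 and 0.43, and at 0.36 and 0.19 without them. With the adipocyte genes it was at −0.40 and −0.39, and at 0.08 and 0.06 without them, so that value rests on the fat region.

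**Figure D4:**
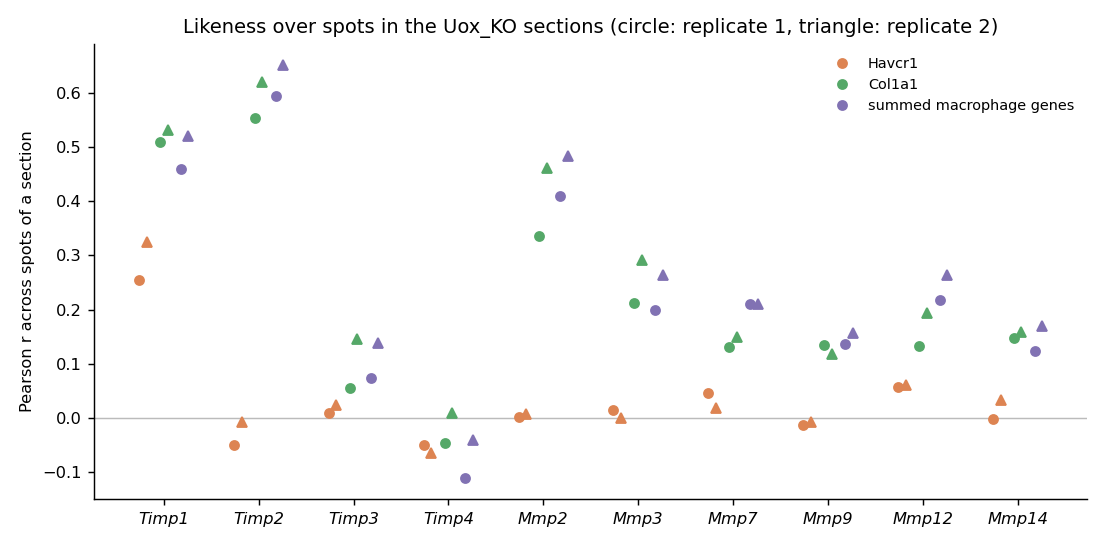
Pearson r across the spots of each Uox_KO section between each member and Havcr1, Col1a1 or the summed macrophage genes, with 1 point per section. The Havcr1 points lie near 0 except for Timp1, at 0.26 and 0.32.

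Spots sorted into 5 equal bins by each feature showed the levels behind these values. In plain CPM, without TMM, Timp1 stood at 23.7 in the lowest and 348 in the highest Col1a1 bin of Uox_KO 1, and at 25.8 and 333 in those of Uox_KO 2. In the fourth and the highest Havcr1 bin it stood at 79.9 and 201 in Uox_KO 1, and at 70.7 and 221 in Uox_KO 2. The 3 lower Havcr1 bins had no Havcr1 UMI and no order. Over the Col1a1 bins Timp2 climbed from 39.2 to 346 CPM in Uox_KO 1 and from 31.8 to 317 in Uox_KO 2. Mmp2 climbed from 10.6 to 98.95 CPM and from 9.99 to 104 in the same order.

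By macrophage genes, Mmp12 climbed from 0.877 to 21.2 CPM in Uox_KO 1 and from 0.936 to 29.9 in Uox_KO 2. Mmp7 climbed from 1.21 to 39.9 CPM and from 0.874 to 21.3. Timp3 was 691 in the lowest and 656 CPM in the highest macrophage bin of Uox_KO 1, and 735 and 840 CPM in those of Uox_KO 2. It was thus near level in bins where Mmp12 and Mmp7 climbed many-fold. Over the macrophage bins of the Control sections Timp2 was at 14.9 CPM in the lowest and 37.5 in the highest bin of Control 1, and at 14.5 and 37.9 in those of Control 2.

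**Figure D5:**
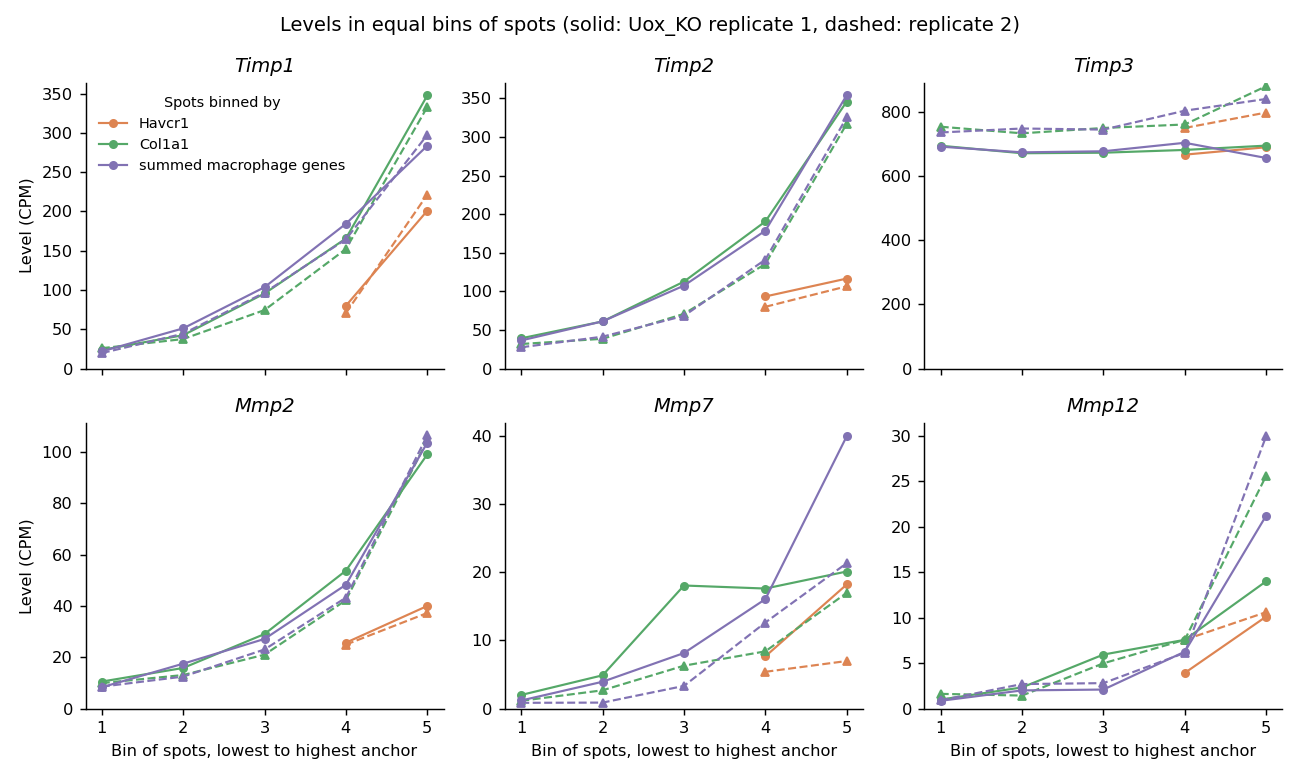
Level in plain CPM of 6 members in 5 equal bins of spots ordered by Havcr1, Col1a1 or the summed macrophage genes, for each Uox_KO section (solid and dashed lines); only the upper 2 Havcr1 bins are drawn. Timp1, Timp2 and Mmp2 climb with Col1a1 and macrophage genes and Timp3 stays between 656 and 880 CPM.

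The genes most like each member over Uox_KO spots were ranked by the mean r of both sections among 10723 genes, for the 7 members with at least 200 UMIs in each section. Timp1 was most like Col1a1 (0.52), Col1a2, Mgp, Actb and Tmsb10, and Timp2 most like Actb (0.66), Bgn, Sparc and Col1a2. Mmp2 was most like Mgp (0.45), Sparc, Bgn and Col1a2, and Mmp3 most like Col3a1 (0.26), Col1a1, Bgn, Col1a2 and Sparc. Collagen or other matrix genes stood among the genes most like each of these members.

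Mmp12 was most like Lyz2 (0.26), Ccl9, Tyrobp, Itgax and Ccl6, which are genes of myeloid cells, and Lyz2 and Tyrobp are in the macrophage list. Mmp7 was most like Stra6 (0.25), Lcn2, Tmsb10, which it shares with Timp1, and Vcam1, of which Lcn2 and Vcam1 are in the injured tubule list. Timp3 was most like Slc34a1 (0.47), the phosphate carrier of the proximal tubule, Gpx3, Cltrn, Cd63 and Ndrg1. All of these spots share their section and depth, and the r of Mmp3, Mmp7 and Mmp12 rest on few UMIs per spot.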

How the data were processed

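Visium counts of 2 Uox_KO and 2 Control kidney sections (10 µm) were used. The deposited UMI counts per gene and spot are the output of Space Ranger 1.3.1 on the mm10 build, as the file headers and the submitters' processing notes name them. Groups and replicate numbers follow the labels, from which the file names differ in number. Members and lists were chosen with earlier results of these data known.

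UMI counts were summed per section, per region and section, or per spot class and section, filtered with filterByExpr (minimum count 10), scaled by TMM, and compared by the quasi-likelihood F test of edgeR 4.0.16 in R 4.3.3 with Benjamini-Hochberg adjustment over all genes tested and a threshold of 0.05. Fits across regions had the mouse as a block, and fits across classes the section. DESeq2 1.42.0 was an alternative. A ratio per UMI sequenced used plain totals with an exact 95% interval, which like the floor of 3 counts covers counting error only. A section's 3 counts are 0.0278 to 0.0557 in plain CPM.

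For regions, spots of at least 500 UMIs (1 spot left out) were scaled to 10000. They were clustered with scanpy 1.11.5 and leidenalg 0.10.2 (2000 variable genes, 30 components, 15 neighbours, resolution 0.5, seed 0). Clusters were grouped by marker lists, except clusters 0 and 1, which had too few listed markers for a name and were counted as proximal. Regions with at least 20 spots in every section were tested. Classes, correlations and bins used the same spots. The files hold no doublet information for spots, and no spot positions were used. Of each pathway list, the 3 called genes of smallest p are named, and of the genes most like a member the first 5; a few of these are not reported here. The scripts were tested on simulated data. Promoter windows and gene positions are from RefSeq, GRCm38.p6.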

Additional observations from a re-analysis of the deposited data

Results flagged for a closer look

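The genotype difference of 5 members differed between the proximal, distal, glomerular and stroma-rich regions in edgeR's region by genotype test, which used 2 sections per genotype with the mouse as a block. The adjusted p was 0.0100 for Timp2, 1.46e-05 for Timp3, 0.0441 for Mmp2, 0.0372 for Mmp9 and 0.0140 for Mmp12. Relative to the proximal region, the log2 fold change in the stroma-rich region differed by 0.47 for Timp2, −0.38 for Timp3, 1.60 for Mmp2, 0.97 for Mmp9 and 1.79 for Mmp12, and in the glomerular region by 2.21 for Mmp9 and 1.51 for Mmp12. In that test 38.4% of all genes were called. Mmp9 and Mmp12 in the glomerular region, and Mmp2 and Mmp9 in the stroma-rich region, passed the filter on low counts through Uox_KO alone in the tests of single regions.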

How the results depend on the processing

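In whole sections the 7 members that passed the filter in Control, and Timp4, Mmp3 and Mmp7, whose direction the filter fixed, were called under each of the 13 settings run, with log2 fold changes of 7.01 to 7.73 for Timp1, 1.63 to 2.34 for Timp2, −0.89 to −0.52 for Timp3, 2.17 to 5.08 for Timp4, 2.79 to 3.57 for Mmp2, 7.07 to 7.75 for Mmp3, 7.50 to 9.33 for Mmp7, 0.95 to 2.49 for Mmp9, 1.02 to 2.20 for Mmp12 and 3.15 to 3.74 for Mmp14. Without TMM the whole-section calls of all genes were 73.6% higher instead of 51.5%, and the median of all genes was 0.27 instead of 0.0025. Of the counts of members called, 80 stayed within 1.5 times and 2 did not: Havcr1 spots against none had 2 with classes set on thinned counts in place of 4, and macrophage against Col1a1 spots had 1 with DESeq2 in place of 2. Timp3 turned positive without TMM, an alternative chosen after seeing the data, at 0.23 for Col1a1 spots against none, 0.0063 for Havcr1 against none, 0.0710 for macrophage against none and 0.0647 for macrophage against Havcr1. By section, Mmp9 ranged from −0.21 (without Uox_KO replicate 1) to 2.48 for Col1a1 against none and from −0.0131 to 2.56 for Col1a1 against Havcr1. Over all genes, Havcr1 against none had 2144 calls with DESeq2 in place of 3837, and macrophage against Col1a1 had 682 at a top 20% and 644 with thinned classes in place of 326. Without TMM the share of calls that were higher was 70.8% in place of 37.2% for Havcr1 against none, 83.4% in place of 49.0% for Col1a1 against none, 82.5% in place of 51.8% for macrophage against none, 80.1% in place of 53.2% for Col1a1 against Havcr1, 80.2% in place of 53.7% for macrophage against Havcr1 and 64.7% in place of 53.99% for macrophage against Col1a1. Of single log2 fold changes under an alternative, 627 kept direction and side of the threshold, 37 were no longer called and 19 became called. Of the spot correlations under an alternative, 100 moved by more than the spread between sections and 80 did not, and of the shares of spots with a UMI 38 moved with thinning. Thinning removes UMIs, so a spot can lose its UMI of a gene but cannot gain one. The cause of the moves in the correlations was not tested. With the replicate block, 10 members were called in whole sections and in the proximal region, 9 in the distal and glomerular and 8 in the stroma-rich region, where Timp4 was lost (adjusted p 0.083). Same-numbered sections of the 2 pairs had deviations correlated at 0.12, and nothing in the labels pairs them. Depth limits the members with few UMIs, above all Mmp9, Mmp14 and Timp4 in classes and stroma-rich Control spots.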
